A study of Rattus norvegicus with 3 samples.

Results

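The nuclear-encoded subunits of the respiratory chain were examined in cultured Schwann cell precursors, which give rise to the myelinating and non-myelinating glia of nerves. Members were the rows of the deposited gene table whose symbol names a subunit of complexes I to V (symbols beginning with Ndufa, Ndufb, Ndufc, Ndufs or Ndufv and a number, Sdha to Sdhd, or beginning with Uqcr, Cox4 to Cox8 or Atp5) together with Cyc1 and Cycs, which gave 82 of 17337 genes. The cells were primary glia of wild-type rat embryos, taken from dorsal root ganglion and grown without treatment in a modified Sato medium based on DMEM, and RNA was sequenced in 3 libraries made with a stranded mRNA kit. All 3 libraries belong to this group, so levels are described within the cultures and no treatment or stage is compared. Nothing says that the libraries came from separate cultures, and each test therefore measures only the spread between them, which may be technical.

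The respiratory chain passes electrons from NADH (through complex I) and succinate (through complex II) by way of ubiquinone to complex III, then by cytochrome c to complex IV, which reduces oxygen. The proton gradient built on the way drives ATP synthase, complex V. Complex II is made from nuclear genes alone, whereas the others also hold subunits encoded in mitochondrial DNA, which were not analysed here. Several complex IV subunits and the c subunit of ATP synthase have more than 1 gene, and some of these are known for a particular tissue or for low oxygen.

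Of the 82 members, 33 were assigned to complex I, 4 to complex II, 9 to complex III, 17 to complex IV, 15 to complex V and 1, Cycs, is cytochrome c. Ndufa4, named for complex I, binds complex IV and was counted there with its paralog Ndufa4l2. The other 3 carry a fitting name but are no subunits. They are Atp5s and Atp5sl, now named Dmac2l and Dmac2, and the pseudogene Cox6c-ps1. The symbols and descriptions of the table fit the label with a few further exceptions. Ndufa10l1, a paralog of Ndufa10, was counted in complex I, and Cox7a2l, a supercomplex factor related to Cox7a2, in complex IV. The row named Ndufs6 carries the gene identifier 29478, which the GRCr8 annotation calls the pseudogene Ndufs6-ps1, and its level is therefore uncertain as a level of Ndufs6.

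Levels are given in TPM, counts per gene length scaled to the same total in each library, as mean ± SD over the libraries (n = 3). Total counts per library were 14139074 to 15309526, and a count of 3 in a member of median length corresponds to 0.584 to 0.627 TPM, a floor that covers counting error only. Markers of the labelled cell type were present. By limma, all 10 precursor markers measured exceeded 1 TPM, among them Sox10 at 612 ± 26.0, Erbb3 at 581 ± 14.3 and Ngfr at 655 ± 20.7 TPM. All 6 fibroblast markers were above as well, with a summed level of 7505 to 7682 TPM per library. All 7 measured sensory neuron markers were above 1 TPM, at a summed 622 to 652 TPM, and so were 3 of 4 macrophage markers, at 15.6 to 18.6 TPM. Of 8 striated muscle markers 2 were above 1 TPM, Tnnt2 at 9.37 ± 0.404 and Des at 7.89 ± 1.29 TPM. Myod1, Myog, Ckm and Myh6 were at 0, and the summed level of the 8 was 16.5 to 19.3 TPM. Of 3 brown fat markers none was above and Ucp1 was at 0, and of 3 erythroid markers none was above and Hba1 and Hbb were at 0. Of 3 endothelial markers, Cdh5 alone was above 1 TPM. These are bulk libraries, so a low level in all cells and a high level in a few cells cannot be told apart, and the part of other cell types in the levels below was not tested.

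Most respiratory chain genes were abundant. Of the 82 members, 75 reached 1 TPM in every library, against 60.6% of all genes listed, and 62 reached 100 TPM in every library, against 11.7%. Each gene with a count was tested with limma against 1 TPM on log2(TPM + 1), with adjustment over all 13345 genes tested. Of the 79 members tested, 75 were above 1 TPM and 2 below (78.4% and 17.8% of all genes tested), and 3 members had no count. A stricter reference was the median of all detected genes in the same library, at 34.1 to 34.7 TPM. By the same test 72 members were above that median and 7 below it, where 37.6% and 58.9% of all genes tested were above and below. The median member was at 215 ± 2.73 TPM, higher than 91.6% of detected genes. Together the members made up 2.12 ± 0.0123% of all TPM. No mitochondrially encoded gene was among the genes listed, so that total leaves such genes out.

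**Figure D1:**
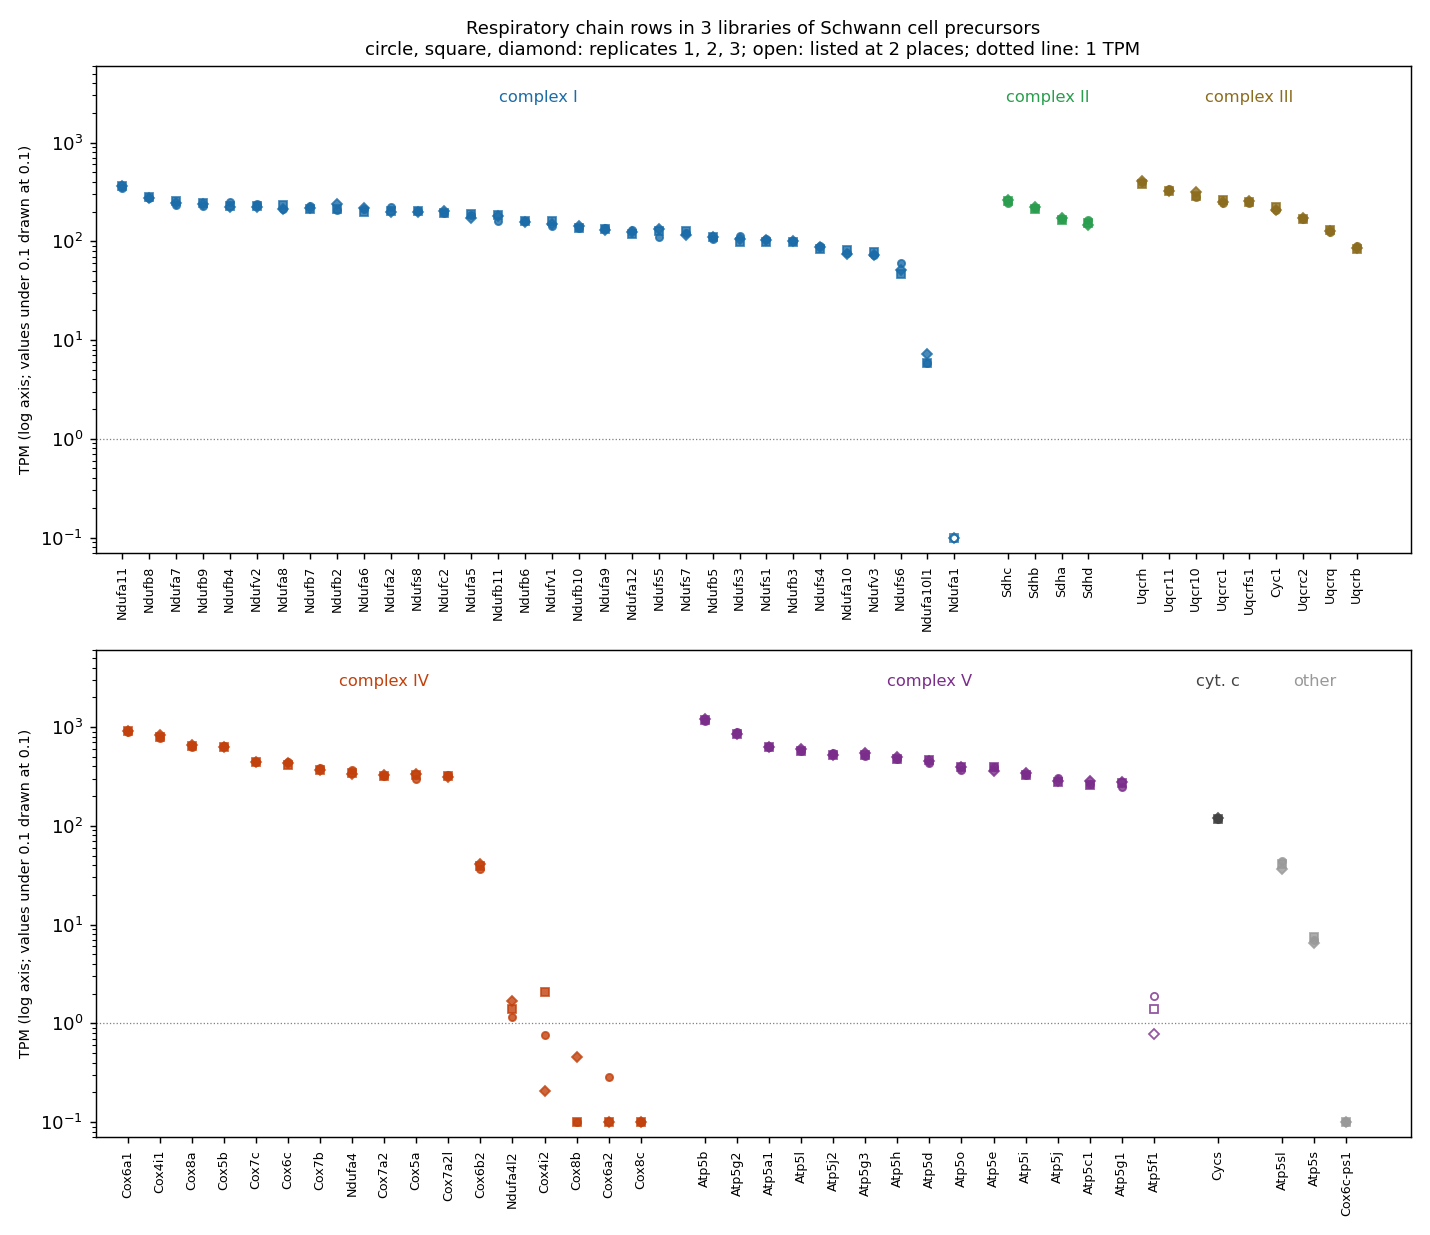
TPM of the rows (log axis; 1 complex I row is not drawn) in each of the 3 libraries, grouped by complex and ordered by mean; circles, squares and diamonds are replicates 1, 2 and 3, and open symbols are rows listed at 2 places. Most rows lie between 38.9 and 1186 TPM in mean with the 3 symbols close together, and a few rows of complexes I, IV and V fall near or under the dotted line at 1 TPM.

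The complexes stood in the same order in each library. The median member of complex V was at 433, 466 and 455 TPM in replicates 1, 2 and 3, that of complex IV at 326, 326 and 335, and that of complex III at 243, 248 and 251. For complex II the medians were 194, 188 and 198 TPM, and for complex I 160, 161 and 155. The ranges of the 5 complexes over the libraries did not overlap. These medians rest on listed gene lengths, which were shortest in complexes IV (median 495 bases) and V (624) and longest in complexes III (1087) and II (1184.5), with 683 bases in complex I. When 200 bases were subtracted from every gene length, the medians were 592 TPM for complex V, 405 for IV, 236 for III, 190 for II and 183 for I.

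Promoters of 68 members were found in a RefSeq table of the GRCr8 assembly (300 bases, from 250 before to 50 after the start), and were searched on both strands for motifs of 3 factors known to bind genes of this group. The NRF1 motif (GCGC, any base, then TGCGC) was in 13 of 68 member promoters (19.1%), in 4.71% of all 27457 promoters and in 10.6% of the 8490 promoters of detected genes. The ETS motif CCGGAAG, bound by GABP among others, was in 19 of 68 (27.9%), in 9.22% of all and in 18.7% of detected. The YY1 motif AAGATGGC was in 14 of 68 (20.6%), in 3.44% of all and in 5.74% of detected, and it began within 50 bases of the start in 12 of the 14 and in 61.2% of all promoters that hold it. Some match to any of the 3 was in 38 of 68 member promoters (55.9%), in 15.5% of all and in 30.5% of detected. The last 3 letters of the ETS motif are the first 3 of the YY1 motif, and in 0 of the 5 member promoters with both did the matches share them. The NRF1 motif can match both strands at once. A match is a description of letters only. To show what such a match looks like, stretches upstream of the start are printed 5′ to 3′ on the strand of the gene. Among members with a promoter found, they come from the most abundant of each complex with an NRF1 match there. In capitals is 1 match on either strand, the nearest to the start among those wholly upstream of it. In Sdha the capitals fit the motif only as its reverse complement. The stretches are from Ndufa11 (chr9:1637498-1637557, plus strand), Sdha (chr1:30764482-30764541, plus), Uqcrc1 (chr8:118468134-118468193, plus) and Atp5g2 (chr7:135678240-135678299, minus), all in GRCr8 coordinates. None of the 14 complex IV promoters found held this motif. The promoters of Cox6a1, Cox6c and Cox4i2 were not among them and were not searched.

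Ndufa11: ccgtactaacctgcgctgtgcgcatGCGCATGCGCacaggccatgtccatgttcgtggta
Sdha: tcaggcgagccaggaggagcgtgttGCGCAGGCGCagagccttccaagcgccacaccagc
Uqcrc1: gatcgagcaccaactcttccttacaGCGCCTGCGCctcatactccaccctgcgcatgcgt
Atp5g2: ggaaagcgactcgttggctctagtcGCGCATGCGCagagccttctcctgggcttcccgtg

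The ETS motif is shown in the same way for complexes II and IV, in capitals on either strand, in Sdhb (chr5:158547801-158547857, plus) and in Cox8a of complex IV (chr1:213833624-213833667, minus). Of the members with a promoter found, those with any match had a median of 226 TPM and those without 185 TPM.

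Sdhb: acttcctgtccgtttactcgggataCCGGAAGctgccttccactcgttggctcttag
Cox8a: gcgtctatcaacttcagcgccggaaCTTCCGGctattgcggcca

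Complex I oxidises NADH through nuclear-encoded core subunits, which carry the flavin and iron-sulfur clusters, and many accessory subunits. The core genes were all above the median detected gene by limma. Ndufv2, an iron-sulfur subunit of the NADH-oxidising tip, was at 240, 229 and 224 TPM in replicates 1, 2 and 3, and lies in the rn6 build at chr9:113875718-113900169, minus strand. Its partner Ndufv1, which binds NADH and the flavin, was lower in each library, at 142, 161 and 151 TPM. The iron-sulfur subunit Ndufs8 was at 201 ± 3.94 TPM. Lower and close together were Ndufs7 at 121 ± 4.98, Ndufs3 at 106 ± 7.23 and Ndufs1, the largest iron-sulfur subunit, at 102 ± 4.57 TPM. The ranges of Ndufs3 and Ndufs1 over the libraries overlapped. Ndufs3 shares 53 exon bases with Kbtbd4 on the opposite strand, and the strand setting of the counting is not given in the sources used here.

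The median of the 26 other complex I rows was 165 ± 5.75 TPM, against 151 ± 9.41 TPM for the core. The ranges over the libraries overlapped. These rows are mostly accessory subunits, and they include the paralog Ndufa10l1, the uncertain row named Ndufs6 and Ndufa1, which had no count. The highest were Ndufa11 at 344, 366 and 362 TPM, Ndufb8 at 272, 279 and 273 TPM, and Ndufa7 at 233, 254 and 246 TPM. All 3 are structural subunits without redox centres. At the lower end, Ndufa10 was at 77.2 ± 3.31 and Ndufv3 at 74.8 ± 2.88 TPM, and the row named Ndufs6 was at 60.9, 46.8 and 51.7 TPM from 351 listed bases. Ndufa10l1, a single-exon relative of Ndufa10, was at 5.85, 5.88 and 7.19 TPM, below the median detected gene (limma adjusted p = 4.9e-08). Ndufa1, a small membrane subunit that complex I requires, had no count in any library.

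Ndufa1 is 1 of 2 members listed at 2 places in the genome. Its row (gene 363441) joins 3 exons at chrX:123803116-123806760 with 3 exons of the same lengths at chrX:124513150-124516791, all minus strand in rn6. The other is Atp5f1 (gene 171375), the b subunit in the peripheral stalk of ATP synthase, with 7 exons at chr2:208408890-208420164 and 7 of the same lengths at chr2:208566385-208577147. Atp5f1 was at 1.91, 1.39 and 0.782 TPM, from 70 counts in all, while the other 3 stalk genes Atp5h, Atp5o and Atp5j were at 484 ± 10.7, 387 ± 14.7 and 290 ± 15.8 TPM. Over the whole table, 515 genes were listed at 2 or more places, and 90.5% of them were under 1 TPM in at least 1 library, against 37.8% of all other genes and 29.2% of other genes with 3 or more listed exons. Among other members the number was 5 of 80. How reads that match both places were counted is not given in the sources used here, and its part in these low values was not tested. Surf1 and Sdhaf1 (listed as RGD1562079), assembly factors of complexes IV and II, are also listed at 2 places and had 4 and 2 counts over the 3 libraries.

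Complex II is succinate dehydrogenase, which also works in the citrate cycle. All 4 genes were above 100 TPM in each library. Sdhc, a membrane anchor, was at 244, 258 and 262 TPM. Sdhb, the iron-sulfur subunit, followed at 218, 213 and 224 TPM, and Sdha, the flavoprotein that oxidises succinate, at 170, 164 and 173 TPM. Sdhd, the other anchor, was lowest in mean at 166, 153 and 148 TPM, and its range overlapped that of Sdha. The anchors join the complex as a pair, and Sdhc exceeded Sdhd by a log2 ratio of 0.71 ± 0.14 (SD, 0.1 TPM added to each gene), in 3 of 3 libraries. For this and every other ratio below with the same sign in 3 of 3 libraries, an exact two-sided permutation of signs over libraries gave p = 0.25, the smallest that 3 libraries allow.

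In complex III, which hands electrons from ubiquinol to cytochrome c, all 9 genes were above the median detected gene. The highest was Uqcrh, the hinge protein near cytochrome c1, at 394, 379 and 407 TPM. It was followed by the small subunit genes Uqcr11 at 340, 322 and 322 TPM and Uqcr10 at 283, 290.5 and 316 TPM. The genes of the catalytic centre lay lower, with the Rieske iron-sulfur protein Uqcrfs1 at 249 ± 6.55 and cytochrome c1, Cyc1, at 214 ± 8.33 TPM. The core proteins Uqcrc1 and Uqcrc2 were at 251 ± 8.59 and 170 ± 1.98 TPM, a log2 ratio of 0.57 ± 0.05. The lowest were Uqcrq at 128 ± 3.55 and Uqcrb, a ubiquinone-binding protein, at 86.5 ± 3.03 TPM. Cycs, encoding somatic cytochrome c itself, was at 117, 118 and 119 TPM. Its testis form Cyct had no count, which puts Cycs at least 189-fold higher with Cyct set at 3 counts in each library.

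Complex IV is cytochrome c oxidase. Its highest members were Cox6a1 at 901, 909 and 903 TPM and Cox4i1 at 768, 800 and 833 TPM, the ubiquitous forms of 2 regulatory subunits. Cox8a, the common form of a small membrane subunit, was at 645 ± 9.59 TPM. Cox5b, which binds zinc, was at 638, 625 and 624 TPM and its neighbour in the complex Cox5a at 301, 326 and 335 TPM. The ranges of Cox5b and Cox5a did not overlap, with a log2 ratio of 0.97 ± 0.10. Cox7c, Cox6c, Cox7b and Ndufa4 lay between 348 and 442 TPM in mean.

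For Cox4i2, Cox6a2, Cox6b2, Cox8b, Cox8c and Ndufa4l2, known from other tissues or from low oxygen, the common form was higher in every library. No member carries the symbol Cox7a1 or Cox7b2, and these forms were therefore not analysed here. Cox4i2, known from lung and from low oxygen, was at 0.769, 2.07 and 0.206 TPM (15 counts in all), and the ratio of mean TPM of Cox4i1 to Cox4i2 was 790-fold with a 95% exact counting interval of 479 to 1412. The interval covers counting error only, and the fold was 1642 without replicate 2. The 3 libraries of Cox4i2 were spread on both sides of 1 TPM, and the gene was called neither above nor below (limma adjusted p = 0.68, but 0.012 and below without replicate 2). Cox6a2 and Cox8b are known from heart and muscle. Cox6a2 had 1 count over the 3 libraries, in replicate 1, a ratio of Cox6a1 to it of 9520-fold with an interval of 1708 to 376057. Cox8b also had 1 count, in replicate 3, a ratio of Cox8a to it of 4253-fold with an interval of 763 to 168029. Cox8c, a testis form, had none, which puts Cox8a at least 834-fold higher with Cox8c set at 3 counts in each library.

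Cox6b2, known as the testis form of the subunit that joins 2 oxidase monomers, stood apart from these. It was at 36.7, 39.1 and 40.9 TPM from 388 counts, above the median detected gene by a log2 difference of 0.17 ± 0.04 (SE, limma adjusted p = 0.0046). Its common form Cox6b1 is listed under the symbol LOC688869 and was found by its gene identifier, 688869, at 336, 341 and 363 TPM. The ratio of Cox6b1 to Cox6b2 was 8.91-fold with a counting interval of 8.02 to 9.93, and Cox6b2 made up 10.1% of the TPM of both. No other row of the table overlaps the exons of Cox6b2, which lie in rn6 at chr1:72661211-72662436, plus strand.

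Ndufa4l2, a paralog of Ndufa4 known to be induced in low oxygen, was at 1.15, 1.39 and 1.70 TPM, while Ndufa4 was at 368, 342 and 335 TPM, a ratio of 247-fold with a counting interval of 171 to 372. Ndufa4l2 was called above 1 TPM (limma adjusted p = 0.020), a call that was lost with edgeR (adjusted p = 0.14), with no filter on low values (0.0624) and without replicate 2 (0.054) or 3 (0.13). Hif1a, encoding the oxygen-regulated subunit of the hypoxia factor, was at 138 ± 2.94 TPM. Cox7a2 and its relative Cox7a2l, which joins complexes III and IV into supercomplexes, differed by less than the spread between libraries. Cox7a2 was at 322, 316 and 325 TPM and Cox7a2l at 326, 320 and 311 TPM, a log2 ratio of 0.01 ± 0.04 with Cox7a2 higher in 1 of 3 libraries (exact p = 1) and a ratio of -0.015 without replicate 3. With 200 bases subtracted from each length the ratio was 0.54, so the value rests on the listed lengths of 479 and 1241 bases. Cox7a2 also shares 100 exon bases with another row on the opposite strand, as do Ndufa2 (70) and Cox7b (68).

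**Figure D2:**
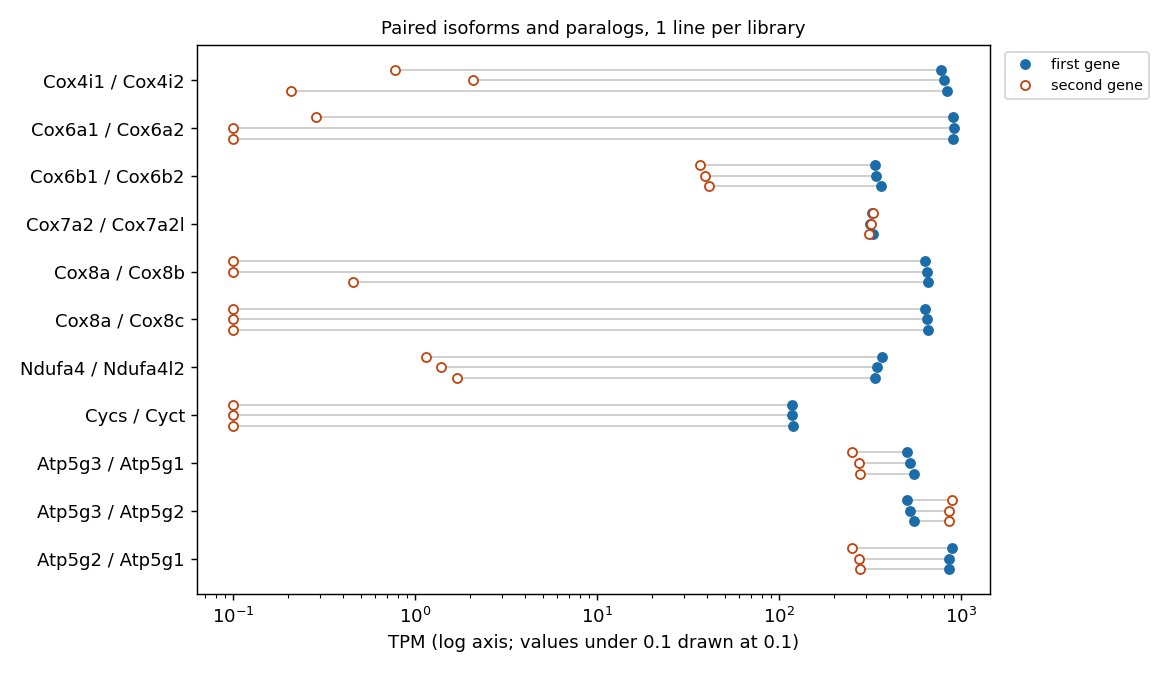
TPM (log axis) of both genes of the 11 measured isoform or paralog pairs, 1 horizontal line per library with replicate 1 on top; filled points are the first gene and open points the second. The second gene lies at or under about 2 TPM for Cox4i2, Cox6a2, Cox8b, Cox8c, Ndufa4l2 and Cyct, near 39 TPM for Cox6b2, and within 4-fold of the first for Cox7a2l and the c subunit genes.

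Complex V, ATP synthase, had the highest member of all. Atp5b, the catalytic beta subunit, was at 1152, 1193 and 1213 TPM and lies in rn6 at chr7:2504708-2511748, plus strand. Atp5a1, the alpha subunit that alternates with beta in the same ring, was at 625, 631 and 631 TPM. The ranges did not overlap, and the log2 ratio of Atp5b to Atp5a1 was 0.92 ± 0.03. Both proteins are known to enter the ring in equal numbers. The other genes of the catalytic head were lower, with Atp5d (delta) at 451 ± 17.0, Atp5e (epsilon) at 382 ± 18.5 and Atp5c1, the rotating gamma shaft, at 272 ± 13.7 TPM. Of the membrane subunits around the rotor, Atp5l was at 581 ± 14.5, Atp5j2 at 526 ± 13.1 and Atp5i at 334 ± 10.9 TPM.

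The proton-carrying c ring is encoded by 3 genes whose mature proteins are alike and whose import sequences differ. Atp5g2 was at 888, 857 and 855 TPM, Atp5g3 at 505, 524 and 546 TPM, and Atp5g1 at 250, 274 and 276 TPM. The 3 genes kept this order in each library without overlap. Atp5g2 made up 52.3 ± 1.57%, Atp5g3 31.7 ± 0.904% and Atp5g1 16.1 ± 0.736% of their summed TPM. The log2 ratio of Atp5g2 to Atp5g1 was 1.70 ± 0.11 and that of Atp5g3 to Atp5g1 0.98 ± 0.04. Their sum was 1643, 1655 and 1676 TPM, above Atp5b in each library. Pseudogenes of Atp5g1 and Atp5g2 are annotated in GRCr8, 2 and 4 of them, and their counts are uncertain where reads are shared with such copies, which was not tested.

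Of the rows that only resemble subunits by name, Atp5sl was at 43.9, 41.2 and 36.7 TPM and Atp5s at 7.002, 7.449 and 6.567 TPM. Cox6c-ps1 had no count. A further 4 rows outside the name rule encode subunits or a direct regulator. LOC100911483, which is Ndufa13 by its identifier, was at 274 ± 10.8 TPM. Usmg5, a small membrane subunit of ATP synthase, was at 438 ± 13.3, and Atpif1, which blocks ATP synthase running in reverse, at 470 ± 18.2 TPM. Ndufab1, the acyl carrier protein in complex I, was at 33.5 ± 4.07 TPM over a listed length of 2569 bases.

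**Figure D3:**
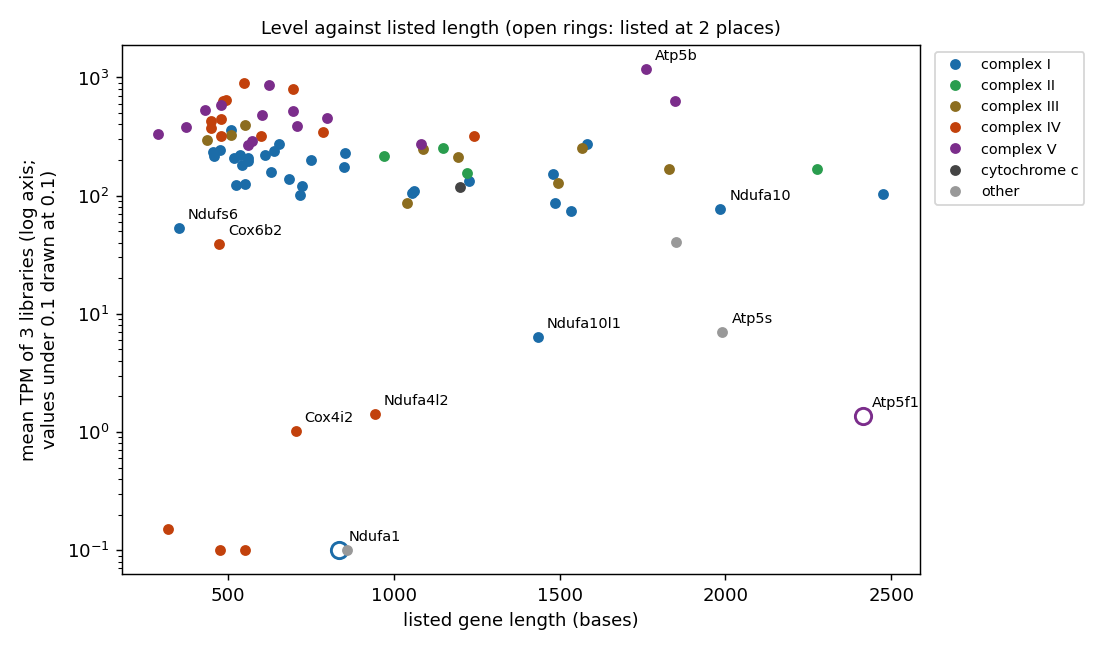
Mean TPM of the 3 libraries (log axis) against listed gene length in bases for the 82 rows, coloured by complex, with open rings for the 2 rows listed at 2 places. Both ringed rows, Ndufa1 and Atp5f1, are the lowest of their complexes, and among rows over 10 TPM the longer ones tend to lie lower.

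Assembly factors and regulators of these complexes had list medians of 16.0 to 31.5 TPM, against 215 TPM for the subunits. Of 75 measured genes in 9 related lists (which repeat the complex I core), 72 were above and 3 below 1 TPM by limma. Of all genes tested, 78.4% were above and 17.8% below. The counts of the single lists are to be read beside those shares. All 13 measured complex I assembly genes were above, with a median of 24.99 ± 1.04 TPM, led by Timmdc1 at 56.9 ± 1.49 and Ndufaf8, listed as LOC690871, at 40.1 ± 1.54 TPM. Of 15 complex IV assembly genes 14 were above and Surf1 was below, with a median of 31.5 ± 0.405 TPM and with Coa3 at 68.4 ± 2.82 and the copper chaperone Cox17 at 66.0 ± 3.94 TPM highest. All 5 complex III genes were above, led by Uqcc2 at 118 ± 4.91 and Uqcc1 at 42.3 ± 2.78 TPM. Of 3 complex II genes, Sdhaf2 at 72.4 ± 3.82 and Sdhaf3 at 16.0 ± 3.55 TPM were above and Sdhaf1 below. The 6 genes of complex V assembly and inhibition were all above, with Tmem242 at 58.2 ± 5.39 TPM next after Atpif1.

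Of 13 regulators 12 were above 1 TPM, against 78.4% of all genes tested. After Hif1a, the factor Yy1 was at 91.2 ± 3.03 TPM. Tfam, which packages mitochondrial DNA and takes part in its transcription, was at 62.4 ± 1.57 TPM. The activators Gabpa and Nrf1, whose motifs were counted above, were at 43.2 ± 3.53 and 31.8 ± 1.24 TPM. The coactivator Ppargc1a was at 10.8, 10.8 and 10.1 TPM, whereas its relative Ppargc1b was below 1 TPM at 0.43, 0.6 and 0.369. All 12 measured genes of ubiquinone synthesis were above, with a median of 28.0 ± 1.03 TPM, led by Coq10b at 69.9 ± 4.58 and Coq9 at 69.9 ± 3.29.

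Members varied little between libraries. Of the 72 members with a mean of 10 TPM or more, none had its highest library over 1.5 times its lowest, where 0.227% of all such genes did. In 1 member, the row named Ndufs6, the highest library was over 25% above the lowest, against 3.73% of all such genes. The median coefficient of variation was 3.53% in the members and 3.84% in all genes of that level, and counting error alone would give a median of 2.91% in the members. The spread exceeded that of counting in 46 of the 72 (63.9%) and in 57.8% of all genes of that level. After Ndufs6, at 1.30, the largest ratios of highest to lowest library were those of Atp5sl at 1.20, Ndufs5 at 1.19, Ndufb2 at 1.15 and Ndufs3 at 1.15. When libraries were taken in pairs, 37 to 40 of the 72 members were higher in the library with the higher replicate number, with median log2 differences of 0.0072 to 0.0091. Of all genes of that level, 41.8% to 50.4% were higher, with medians of -0.019 to 0.0012.

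**Figure D4:**
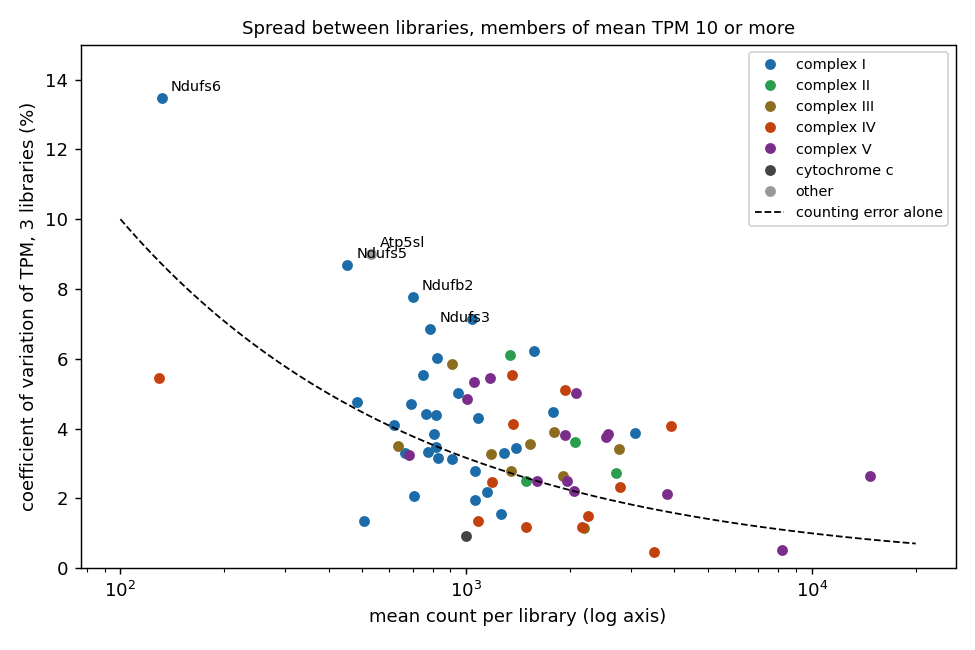
Coefficient of variation of TPM over the 3 libraries (%) against mean count per library (log axis) for the 72 members of mean TPM 10 or more, coloured by complex, with the value that counting error alone gives as a dashed line. Points scatter around and somewhat above the line, and the row named Ndufs6, with the second fewest counts, is highest at 13.5%.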

How the data were processed

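RNA of 3 libraries was measured by sequencing of stranded mRNA libraries, per the labels' protocols. The deposited table gives unnormalized read counts per gene and TPM that the authors derived from counts and gene lengths. The submitters' processing notes list STAR 2.5.2b, Subread and the rn6 build. Annotation, strand setting and the treatment of multiply matching reads: not given in the sources used here. TPM recomputed from the deposited counts differed by at most 0.0005. The 2 rows without a gene name, 6 columns of totals and counts over length were not used.

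Members and lists were chosen with earlier results of these data known. Levels were tested with limma 3.58.1 (R 4.3.3) on log2(TPM + 1), one-sample, moderated with trend, two-sided, Benjamini-Hochberg adjusted over all 13345 genes with a count, at 0.05. Alternatives included edgeR 4.0.16 (quasi-likelihood test on the counts, with offsets for length and depth), TMM and DESeq2 1.42.0 scaling. On simulated data, in a fit of 13114 genes, 40 of 40 genes at 25% above the median detected gene were called above it and 0 of 40 at the median. Against 1 TPM, in 13119 genes, 40 of 40 at 2 TPM and 19 of 40 at 25% above 1 TPM were called above, and of 40 at 1 TPM 1 was called above and 2 below. The simulation used the same fixed dispersion for all genes. Its set levels were given to genes of middle length only, so these rates were not measured for the shortest members. Pairs were given as log2 ratios with 0.1 TPM added, and 11 of 13 listed pairs were measured. A further 7, among them Atp5b to Atp5a1 and Sdhc to Sdhd, were chosen after their values were seen. A gene was listed at 2 places where its exons lie on more than 1 chromosome or strand, or repeat with the same lengths. Named genes are all of complex II, Cycs, the complex I core, pair members, the 4 highest and 3 lowest of each other complex, rows at 2 places or under 1 TPM, the 5 with the largest spread and the 2 highest of each related list, and others named were chosen after their values were seen. 1 gene that this rule names is not reported here. All 82 member identifiers were found in the RefSeq table of GRCr8, used for names, pseudogenes and promoters.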

Additional observations from a re-analysis of the deposited data

How the results depend on the processing

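Every call of the 79 tested members against the median detected gene held under each of the 12 alternatives in which that member was tested. Against 1 TPM, 938 of 945 member values kept their call and none reversed. The exceptions were Ndufa4l2 and Cox4i2, given above, and Atp5f1, called above 1 TPM by edgeR (log2 level 0.44, adjusted p = 0.043) and without replicate 3 (0.40, 0.0042). The number of members below 1 TPM, 2 in the text, was 1 when genes under a mean of 0.1 TPM were left out and 5 with no filter, which tests members with no count, and 1 to 3 when a replicate was left out. With 200 bases subtracted from gene lengths the medians were 183 TPM (complex I), 236 (III), 405 (IV), 592 (V) and 116 (Cycs), and the summed TPM was 26086 in place of 21181. Without rows at 2 places the complex I median was 165, and without members under 10 TPM in every library, an alternative added after seeing the data, it was 172 and that of complex IV 401. With 5 rows outside the name rule, also added later, the sum was 22744. Of the 2 members at 2 places, 1 was under 0.5 TPM, and 1 member differed by over 25% between libraries. Of 11 measured pairs, 10 had the same sign in every library under each alternative. The sign of the other, Cox7a2 to Cox7a2l, turned between settings, with a log2 ratio of 0.54 with subtracted lengths and -0.015 without replicate 3. Of 90 pair ratios 13 moved beyond their SD, all with a pseudocount of 1 TPM or subtracted lengths. TMM and DESeq2 scaling moved TPM by under 1%. No paired analysis was possible because the libraries form 1 group. Members of median length under about 0.6 TPM are at the limit of 3 counts. In shorter rows that limit is higher, at 1.34 TPM for Cox8b and 0.897 TPM for Cox6a2. These are the 2 members called below 1 TPM, and the limit for Cox8b lies above 1 TPM.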

Other observations

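Some properties of the members go with their listed level and are given as descriptions. Among the 72 members reaching 10 TPM, Spearman's rho between listed length and mean TPM was -0.36 across genes, which are not independent replicates, against -0.14 over all 10513 detected genes. The 25 shortest members (289 to 550 bases) had a median of 328 TPM, the 23 of middle length 237 and the 24 longest (1041 to 2476 bases) 153. Detected genes outside the set with lengths of 456 to 1581 bases had a median of 44.4 TPM.

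GRCr8 names 86 pseudogenes for 35 of the 72 members (48.6%), where 15.3% of all 8404 genes reaching 10 TPM have 1 or more, with 8 for Atp5l and 7 each for Ndufb4 and Cycs. The members with pseudogenes had a median of 276 TPM and the 37 without 210 TPM. Only pseudogenes named after the GRCr8 symbol of a gene were counted. The 37 include the row named Ndufs6, whose own identifier GRCr8 calls a pseudogene.

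Members lie on 19 chromosomes. Some are near each other in rn6, such as Ndufs8 (219141291 to 219144610) and Ndufv1 (219254293 to 219259328) on the minus strand of chromosome 1. Ndufs8 was at 203, 203 and 196 TPM and Ndufv1 at 142, 161 and 151 TPM.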
